A study of Mus musculus with 2 samples.

Results

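The 6 genes described here encode the receptor-mediated protein uptake machinery of the proximal tubule: Lrp2, Cubn, Amn, Dab2, Clcn5 and Fcgrt. They were chosen by symbol, with earlier results of these data known, and all 6 were found once each among the 32285 genes listed for the Visium sections. Visium slides carry barcoded spots that capture polyadenylated RNA from the tissue lying on them, and each spot can hold a mixture of cells. The study compared kidneys of C57BL/6 mice 7 days after unilateral ureteral obstruction (UUO), a surgical tie of the ureter on 1 side. SH045, larixyl N-methylcarbamate, is an inhibitor of the cation channel TRPC6. Per the labels both kidneys were obstructed, and SH045 was given to 1 of the mice and vehicle to the other. The dose, route, age and sex are not given in any source used here.

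The spatial data held 1 SH045 section with 22388623 UMIs (distinct captured RNA molecules) in 790 spots, and 1 section labelled Vehicle (the Vehicle-labelled section) with 4327613 UMIs in 676 spots. The median spot held 27733 UMIs in the SH045 section, against 4932 in the Vehicle-labelled section, and the mitochondrially encoded share was 4.24% in the SH045 section, against 10.4% in the Vehicle-labelled section. Havcr1, the tubule injury marker KIM-1, stood at 992 UMIs per 1000000 (CPM) in the SH045 section, against 1.62 CPM, from 7 UMIs, in the Vehicle-labelled section. That level goes against the label of an obstructed kidney, so the section is called by its label only. The sections shared 335 spot barcodes, which mark positions on the slide and not shared cells. Kidney identity was clear in both sections, with the proximal phosphate transporter gene Slc34a1 at 585 CPM in the SH045 section, against 4413 CPM in the Vehicle-labelled section.

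Megalin, encoded by Lrp2, and cubilin, encoded by Cubn, are giant receptors of the proximal tubule brush border that bind filtered albumin, vitamin carriers and other small plasma proteins. Cubilin has no transmembrane segment and reaches the cell surface with amnionless, encoded by Amn. Dab2 is the adaptor that links megalin to the clathrin coat, ClC-5, encoded by Clcn5, is the chloride-proton exchanger that aids endosome acidification, and the neonatal Fc receptor heavy chain, encoded by Fcgrt, returns albumin and IgG from acid endosomes. Dab2 is also made by macrophages, and Fcgrt by macrophages, endothelium and podocytes.

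The receptor genes Lrp2 and Cubn had the lowest ratios of the 6, SH045 over Vehicle, followed by Amn, Clcn5 and Dab2, and Fcgrt had the highest. Lrp2 (ENSMUSG00000027070, chr2:69424335-69586029) had 5402 UMIs, or 241 CPM (95% interval 235 to 248), in the SH045 section, against 3534 UMIs, or 817 CPM (789.9 to 844), in the Vehicle-labelled section. Its level was 3.38-fold lower in the SH045 section (3.24 to 3.53), and 2.14% of the 10463 genes that reached 10 CPM in a section had a lower ratio. Cubn (ENSMUSG00000026726, chr2:13276338-13491876) stood at 89.3 CPM (85.4 to 93.3) in the SH045 section, against 215 CPM (201 to 229) in the Vehicle-labelled section, 2.41-fold lower (2.22 to 2.60). Amn (ENSMUSG00000021278, chr12:111271096-111276426) stood at 84.6 CPM (80.9 to 88.5) in the SH045 section, against 160.4 CPM (149 to 173) in the Vehicle-labelled section, 1.89-fold lower (1.73 to 2.07). The intervals are exact Poisson intervals for levels and exact binomial ones for folds. They cover counting error only, and with 1 section and 1 mouse per group no test was possible and drug, mouse, section and library cannot be told apart. Nor can fewer proximal tubule cells be told apart from less RNA of a gene per cell.

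The adaptor, the exchanger and the recycling receptor differed less between sections. Dab2 (ENSMUSG00000022150, chr15:6299788-6440715) stood at 188 CPM (182 to 194) in the SH045 section, against 219.5 CPM (206 to 234) in the Vehicle-labelled section, 1.17-fold lower (1.09 to 1.25). Clcn5 (ENSMUSG00000004317, chrX:7153810-7319358) stood at 56.7 CPM (53.6 to 59.9) in the SH045 section, against 96.6 CPM (87.6 to 106) in the Vehicle-labelled section, 1.70-fold lower (1.52 to 1.90). Fcgrt (ENSMUSG00000003420, chr7:45092993-45103822) stood at 171 CPM (165 to 176) in the SH045 section, against 127 CPM (116 to 138) in the Vehicle-labelled section. Its fold of 1.34 (1.23 to 1.47) is a log2 ratio of 0.42 that changes direction to -0.16 with TMM factors and to -0.23 with median-of-ratios factors. Gene positions are those of RefSeq for the GRCm38.p6 assembly.

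At a fold of 1.5 or more, 4 of the 6 genes (Lrp2, Cubn, Amn and Clcn5) were lower in the SH045 section and 0 were higher, while 12.0% of all measured genes were lower and 53.2% higher. The log2 ratios of the 6 had a median of -0.84, and the median over all 10463 measured genes was 0.63. Relative to that all-gene median, 5 of the 6 were lower, Dab2 being the fifth, and 0 were higher, against 25.7% lower and 27.3% higher among all measured genes. Summed, the 6 genes stood at 831 CPM (819 to 843) in the SH045 section, against 1635 CPM (1597 to 1673) in the Vehicle-labelled section.

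Each section was also parted by position into 4 blocks of like spot number. Over the blocks Lrp2 spanned 92.8 to 322 CPM in the SH045 section, against 711 to 1018 CPM in the Vehicle-labelled section. Cubn spanned 33.5 to 121 CPM in the SH045 section, against 168 to 276 CPM in the Vehicle-labelled section. Every SH045 block lay below every Vehicle block for 4 genes, Lrp2, Cubn, Amn and Clcn5, a pattern shown by 13.5% of all measured genes. For Fcgrt each SH045 block (159 to 180.1 CPM) lay above each Vehicle block (109.7 to 146 CPM), as for 56.3% of measured genes, though the section-level direction turns with TMM and median-of-ratios factors, and for Dab2 the blocks overlapped (138 to 218 CPM in the SH045 section, against 202 to 251 CPM in the Vehicle-labelled section). The same SH045 block was the lowest of its section for all 6 genes.

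**Figure D1:**
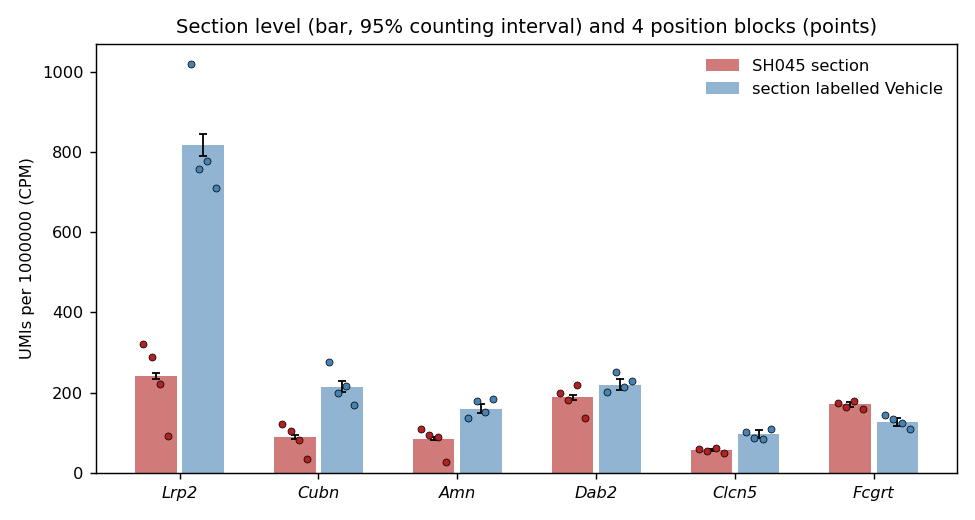
Levels of the 6 endocytosis genes in UMIs per 1000000, SH045 section left and section labelled Vehicle right of each pair. Bars are section levels with 95% counting intervals and points are the 4 position blocks. Lrp2 has the widest gap between sections (241 CPM in the SH045 section, against 817 CPM in the Vehicle-labelled section), Dab2 has overlapping blocks and Fcgrt is slightly higher in the SH045 section, a direction that TMM and median-of-ratios factors turn (-0.16 and -0.23 on the log2 scale).

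The make-up of the six-gene signal therefore differed between the sections. Lrp2 gave 29.0% of the 18597 UMIs of the 6 genes in the SH045 section (28.4 to 29.7%), against an interval of 48.8 to 51.1% of 7075 UMIs in the Vehicle-labelled section. Dab2 gave 22.6% (22.0 to 23.3%) in the SH045 section, against 13.4% (12.6 to 14.2%) in the Vehicle-labelled section. Fcgrt, the recycling receptor gene, gave 20.5% in the SH045 section, against 7.76% in the Vehicle-labelled section. The shares of Cubn, Amn and Clcn5 lay closer together, at 10.7%, 10.2% and 6.83% in the SH045 section, against 13.1%, 9.81% and 5.91% in the Vehicle-labelled section. These shares do not depend on the scaling between sections, but RNA of each gene from other cell types enters them.

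By list median, markers of the early proximal segments differed more than the receptors did, while those of the straight segment lay on both sides. All 20 listed markers of the first and second proximal segments, which include none of the 6, were lower in the SH045 section. Their log2 ratios had a median of -2.28 and ran from -4.26 to -0.58, a range that holds those of Lrp2, Cubn and Amn. The 20 markers summed to 2264 CPM in the SH045 section, against 14078 CPM in the Vehicle-labelled section. Slc34a1, given above, and Miox, the inositol oxygenase gene at 221 CPM in the SH045 section, against 2577 CPM in the Vehicle-labelled section, had the highest levels on that list. Of 12 straight segment markers 6 were higher and 5 lower in the SH045 section, with a median log2 ratio of 0.60, near that of all genes. Their sum was nonetheless lower, at 1704 CPM in the SH045 section, against 5325 CPM in the Vehicle-labelled section. Its most abundant markers, Cyp4b1 and Acy3, had 218 and 377 CPM in the SH045 section, against 1988 and 1668 CPM in the Vehicle-labelled section. The median of the 6 endocytosis genes lay 1.45 log2 units above that of the first and second segment list, called the segment list from here on. Per 1000 UMIs of it, Lrp2 had 107 UMIs (104 to 109) in the SH045 section, against 58.0 (56.1 to 60.0) in the Vehicle-labelled section. Cubn, Amn and Clcn5 had 39.4, 37.4 and 25.1 per 1000 in the SH045 section, against 15.3, 11.4 and 6.86 in the Vehicle-labelled section. Dab2 and Fcgrt had 83.1 and 75.4 in the SH045 section, against 15.6 and 9.01 in the Vehicle-labelled section. On this measure all 6 genes were higher in the SH045 section, Lrp2 by the smallest margin. The segment list it divides by was itself lower there, and only 2.14% of measured genes had a lower ratio than Lrp2. Nearly all measured genes would thus be higher on this measure, which is not particular to the 6. The comparison of medians depends on the list chosen, since against the brush border list described below the 6 genes had the lower median, by 0.62 log2 units (-0.62).

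Other genes of the uptake route lay on both sides. Their counts are given as measured and then relative to the all-gene median of 0.63, since TMM and median-of-ratios factors take away most of that shift. Of 18 clathrin coat and adaptor genes 7 were higher and 1 was lower in the SH045 section (median log2 ratio 0.39, relative counts 1 higher and 4 lower). The AP-2 subunit gene Ap2m1 and the clathrin heavy chain gene Cltc had 435 and 355 CPM in the SH045 section, against 348 and 219 CPM in the Vehicle-labelled section. Lrpap1, which encodes the chaperone that escorts megalin and its relatives through the secretory pathway, had the lowest ratio on that list, with 194 CPM in the SH045 section, against 406 CPM in the Vehicle-labelled section. The AP-2 gene Ap2b1 had the highest, with 98.3 CPM in the SH045 section, against 32.6 CPM in the Vehicle-labelled section.

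Of 21 endosome sorting and recycling genes 5 were higher and 2 lower in the SH045 section (median 0.17, relative counts 1 higher and 8 lower). The small GTPase genes Rab7 and Rab5c and the sorting nexin gene Snx3 differed by less than 1.5-fold, with 270.4, 185 and 203 CPM in the SH045 section, against 240.3, 232 and 182 CPM in the Vehicle-labelled section. Highest by ratio was the recycling GTPase gene Rab11b, with 166 CPM in the SH045 section, against 64.9 CPM in the Vehicle-labelled section. Its effector gene Rab11fip3 was lowest, with 97.6 CPM in the SH045 section, against 202 CPM in the Vehicle-labelled section.

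Proton pump genes lay on the lower side and, as measured but not relative to all genes, lysosomal genes on the higher. Of 18 genes of the pump that acidifies endosomes, 5 were lower and 1 was higher in the SH045 section (median -0.45, relative counts 0 higher and 13 lower), and they summed to 3378 CPM in the SH045 section, against 5022 CPM in the Vehicle-labelled section. The subunit genes Atp6v0c, Atp6v1f and Atp6v1e1 had 699.9, 347 and 242 CPM in the SH045 section, against 1044, 672 and 656 CPM in the Vehicle-labelled section. The lowest ratio was that of Atp6v1b1, a subunit gene of intercalated cells, with 19.7 CPM in the SH045 section, against 74.9 CPM in the Vehicle-labelled section. Atp6v0a1 had the highest, with 63.4 CPM in the SH045 section, against 34.7 CPM in the Vehicle-labelled section. Intercalated cell markers, which include pump subunit genes of their own, moved with this list. Of the 7, 5 were lower and 2 higher, and they summed to 237 CPM in the SH045 section, against 869 CPM in the Vehicle-labelled section, with Atp6v1g3 at 100.4 CPM in the SH045 section, against 546 CPM in the Vehicle-labelled section. Their part in the result was not tested.

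Of 19 measured lysosome genes 9 were higher and 0 lower in the SH045 section (median 0.48, relative counts 4 higher and 4 lower). Among all measured genes 53.2% were higher and 12.0% lower. The cathepsin genes Ctsd and Ctsb and the lysosomal tetraspanin gene Cd63 had 2296, 1227 and 1603 CPM in the SH045 section, against 589.9, 642 and 972 CPM in the Vehicle-labelled section. Ctsd had the highest ratio and the lysosomal channel gene Mcoln1 the lowest, with Mcoln1 at 28.0 CPM in the SH045 section, against 32.6 CPM in the Vehicle-labelled section. All 16 macrophage markers were higher, also relative to all genes. They summed to 2438 CPM in the SH045 section, against 305 CPM in the Vehicle-labelled section. Their part in the lysosomal values was not tested.

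Relatives of the 6 genes by family mostly had higher ratios than the members did. Of 9 measured genes of the lipoprotein receptor family other than Lrp2, 6 were higher and 1 was lower in the SH045 section (median 0.82, relative counts 3 higher and 1 lower). Lrp1, the broadly expressed relative of megalin, had the highest ratio, with 166 CPM in the SH045 section, against 32.6 CPM in the Vehicle-labelled section. Lrp10 and the sorting receptor gene Sorl1 had 211 and 98.5 CPM in the SH045 section, against 161 and 49.7 CPM in the Vehicle-labelled section.

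Among 9 measured CLC genes and their subunits 0 were higher and 2 lower (median -0.03, relative counts 0 higher and 6 lower). The lowest of the list was Bsnd, a channel subunit gene, with 18.3 CPM in the SH045 section, against 66.8 CPM in the Vehicle-labelled section. The exchanger genes nearest to Clcn5, Clcn4 and Clcn3, differed by less than 1.5-fold, with 84.4 and 46.5 CPM in the SH045 section, against 63.5 and 42.7 CPM in the Vehicle-labelled section, and Clcn4 had the highest ratio of the list.

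All 7 listed Fc receptor and light chain genes were higher in the SH045 section (median 2.38, relative counts 5 higher and 0 lower), a list shared in part with macrophages, whose marker sums are given above. B2m, which encodes the light chain that pairs with the Fcgrt product, had 1144 CPM in the SH045 section, against 270.1 CPM in the Vehicle-labelled section. The signalling chain gene Fcer1g and the inhibitory receptor gene Fcgr2b, the lowest of the list, had 163 and 62.0 CPM in the SH045 section, against 30.5 and 35.1 CPM in the Vehicle-labelled section. Fcgr3 had the highest ratio, with 53.7 CPM in the SH045 section, against 5.31 CPM in the Vehicle-labelled section. Fcgrt itself, at a log2 ratio of 0.42, lay below each of the 7.

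Genes for ligands and for nutrient handling also lay on both sides. Of 17 measured genes that encode proteins bound by megalin or cubilin, 9 were higher and 7 lower in the SH045 section (median 0.90, relative counts 7 higher and 8 lower). These transcripts are made in the kidney and say nothing of filtered protein. Clu, Umod and Apoe, encoding clusterin, uromodulin and apolipoprotein E, had 6386, 3373 and 2166 CPM in the SH045 section, against 629.7, 1470 and 145 CPM in the Vehicle-labelled section. Lcn2, encoding the iron-carrier binding lipocalin 2, had the highest ratio, with 1233 CPM in the SH045 section, against 2.08 CPM in the Vehicle-labelled section. Egf, the growth factor gene, had the lowest, with 38.0 CPM in the SH045 section, against 348 CPM in the Vehicle-labelled section.

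Of 12 measured vitamin and trace nutrient genes 3 were higher and 4 lower in the SH045 section (median -0.41, relative counts 3 higher and 8 lower). The folate receptor gene Folr1, the vitamin D receptor gene Vdr and the folate carrier gene Slc19a1 had 124, 76.8 and 66.6 CPM in the SH045 section, against 227, 228 and 87.6 CPM in the Vehicle-labelled section. The transferrin receptor gene Tfrc had the lowest ratio, with 23.4 CPM in the SH045 section, against 81.8 CPM in the Vehicle-labelled section. Stra6, the retinol-binding protein receptor gene, had 865 UMIs (38.6 CPM) in the SH045 section, against 0 UMIs in the Vehicle-labelled section, at least 55.7-fold higher taking 3 counts as the floor of that library.

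Of 20 brush border genes 5 were higher and 4 lower in the SH045 section (median -0.22, relative counts 1 higher and 11 lower). The peptidase genes Ggt1 and Mep1a had 297 and 539 CPM in the SH045 section, against 1076 and 765 CPM in the Vehicle-labelled section. Ggt1 had the lowest ratio of the list. The scaffold gene Pdzk1 had 239 CPM in the SH045 section, against 802 CPM in the Vehicle-labelled section. The neprilysin gene Mme had the highest ratio, with 108 CPM in the SH045 section, against 37.0 CPM in the Vehicle-labelled section. Among 10 measured genes for transcription factors of the proximal tubule and of lysosomes 4 were higher and 3 lower (median 0.13, relative counts 1 higher and 4 lower). The proximal tubule regulator gene Hnf4a had 116 CPM in the SH045 section, against 264 CPM in the Vehicle-labelled section. Maf differed by less than 1.5-fold, with 101 CPM in the SH045 section, against 91.7 CPM in the Vehicle-labelled section. Mitf, a regulator of lysosomal genes, had the highest ratio, with 27.5 CPM in the SH045 section, against 9.24 CPM in the Vehicle-labelled section.

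**Figure D2:**
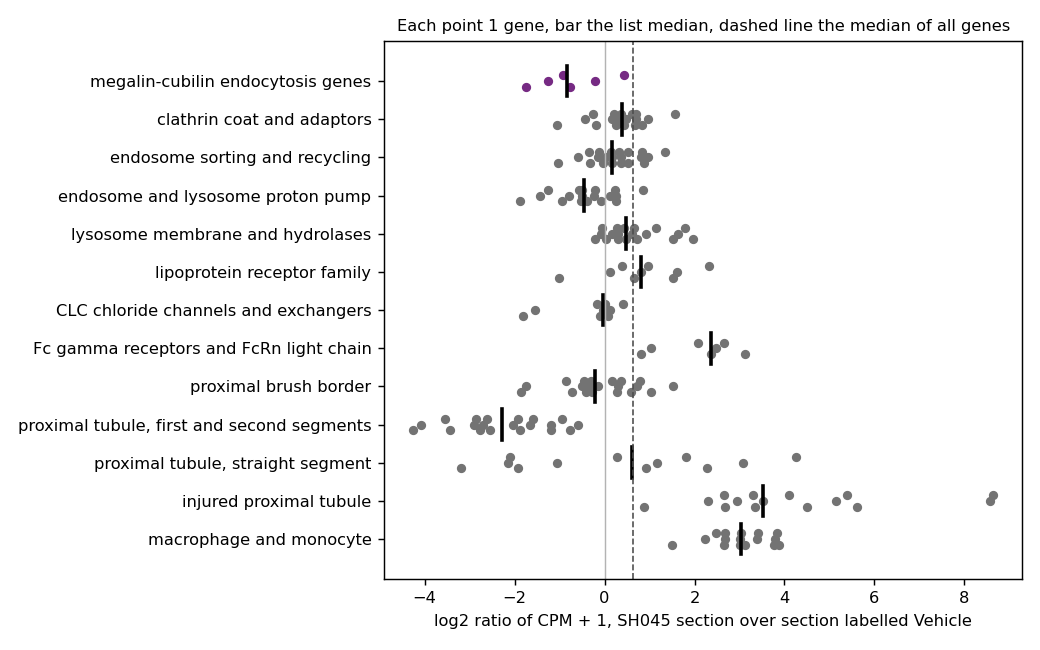
Log2 ratio of CPM + 1, SH045 section over section labelled Vehicle, for each measured gene (points) of the 6 endocytosis genes and of related pathway, family and cell marker lists, with list medians (bars) and the median of all measured genes (dashed line, 0.63). The median of the endocytosis genes (-0.84) lies between those of the first and second segment markers (-2.28) and the brush border genes (-0.22).

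Within each section the receptor genes followed the segment markers. Spots with at least 1000 UMIs were ranked by the summed CPM of the first and second segment list and cut into 4 bins of like spot number, whose list levels ran 445, 980.1, 1637 and 4777 CPM in the SH045 section, against 7051, 13223, 15614 and 20175 CPM in the Vehicle-labelled section. Lrp2 ran 57.6, 124, 191 and 476 CPM over the SH045 bins and 434, 756, 919 and 1150 CPM over the Vehicle bins, so that it stepped up at each bin of both sections. Its level in the top bin was 8.26 times that in the bottom bin (7.26 to 9.43) in the SH045 section, against 2.65 times (2.37 to 2.97) in the Vehicle-labelled section. Cubn ran 20.2, 55.2, 84.5 and 159 CPM in the SH045 section, against 124, 202, 244 and 286 CPM in the Vehicle-labelled section, with top over bottom ratios of 7.86 (6.31 to 9.89) in the SH045 section, against 2.30 (1.86 to 2.88) in the Vehicle-labelled section. Amn, whose product brings cubilin to the surface, had ratios of 6.53 (5.25 to 8.20) in the SH045 section, against 1.93 (1.49 to 2.52) in the Vehicle-labelled section. Thus all 3 receptor complex genes were graded with the segment markers in both sections. The gradient was not particular to the early segments. Ranked by the straight segment list, Lrp2, Cubn and Amn had ratios of 6.80, 6.91 and 4.28 in the SH045 section, against 3.24, 3.14 and 1.69 in the Vehicle-labelled section. Over the first and second segment bins Amn stepped up throughout in the SH045 section (20.7, 58.0, 93.2 and 135 CPM). It was level over the upper bins in the Vehicle-labelled section (184, 175 and 180.2 CPM after 93.1 CPM).

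The other members were graded less. Dab2 ran 102, 162, 191 and 256 CPM in the SH045 section, against 150.0, 227, 251 and 242 CPM in the Vehicle-labelled section, with top over bottom ratios of 2.51 (2.26 to 2.79) in the SH045 section, against 1.61 (1.31 to 1.99) in the Vehicle-labelled section. Fcgrt had ratios of 1.20 (1.09 to 1.32) in the SH045 section, against 1.40 (1.09 to 1.80) in the Vehicle-labelled section. Clcn5 stood at 52.5, 59.3 and 61.7 CPM in the upper 3 bins of the SH045 section, with a top over bottom ratio of 1.24 (1.05 to 1.46). It ran 124, 101, 83.3 and 79.2 CPM in the Vehicle-labelled section, with a ratio of 0.638 (0.475 to 0.853), so its bottom and top bins stood in opposite order in the sections. The list itself spanned a wider range in the SH045 section, so the steepness of the gradients is not compared between sections. Spots of a section share a mouse and a library, and these values describe each section only.

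**Figure D3:**
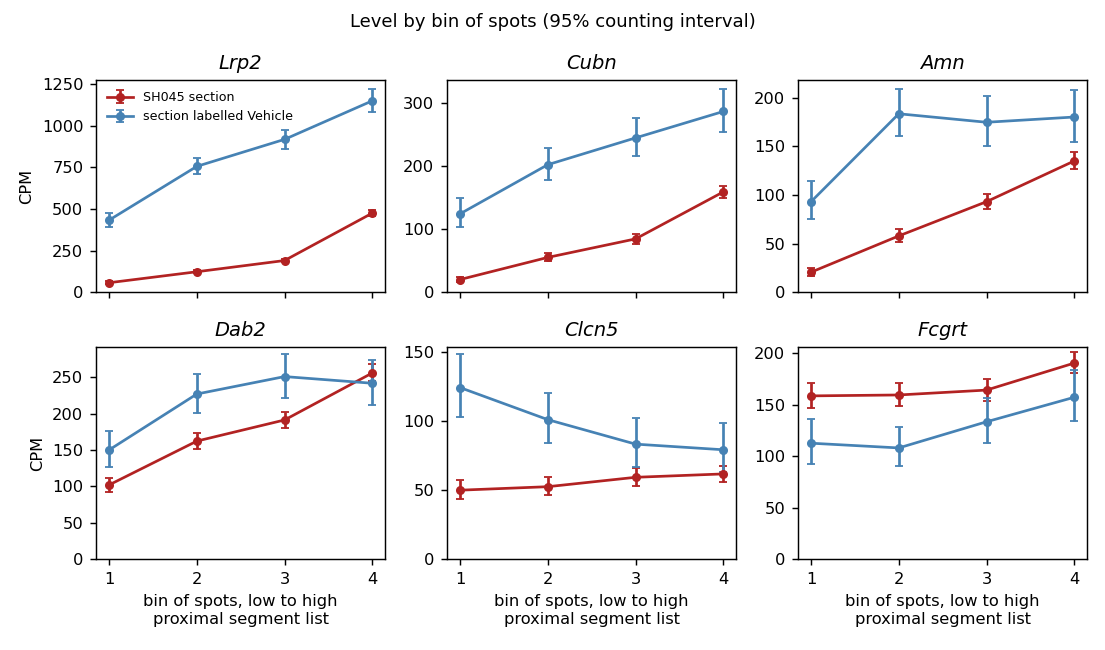
Level of each gene in CPM by bin of spots ranked low to high on the first and second segment list, SH045 section (red) and section labelled Vehicle (blue), with 95% counting intervals. Lrp2, Cubn and Amn climb in the SH045 section by 6.53 to 8.26 times from the bottom to the top bin, while Clcn5 climbs slightly there and declines in the Vehicle-labelled section.

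Ranking by other cell type lists gave further contrasts. The injured tubule list, led by the osteopontin gene Spp1 and by Clu, had all 15 genes higher in the SH045 section and summed to 28284 CPM there, against 1768 CPM in the Vehicle-labelled section. Spp1 had 17076 CPM in the SH045 section, against 754 CPM in the Vehicle-labelled section. In spots ranked by this list the top bin held 0.293 times the Lrp2 level of the bottom bin in the SH045 section, against 0.384 times in the Vehicle-labelled section. Cubn, Amn and Dab2 gave 0.403, 0.647 and 0.720 in the SH045 section, against 0.391, 0.608 and 0.665 in the Vehicle-labelled section. In the Vehicle-labelled section the injury markers Havcr1 and Lcn2 had only 7 and 9 UMIs, and the injured list was highest in the region led by Klk1, at 5656 CPM. Ranking by the distal convoluted and connecting tubule list, to which Klk1 belongs, gave similar values there, 0.367 for Lrp2 and 0.359 for Cubn. The ranking by the injured list is therefore not read as one of injury in that section. Fcgrt gave 0.826 in the SH045 section, against 0.823 in the Vehicle-labelled section. Clcn5 gave 0.913 in the SH045 section, against 1.29 in the Vehicle-labelled section. By the macrophage list, in the SH045 section, Lrp2 was 0.337 times and Cubn 0.390 times as high in the top bin, against 1.06 (0.976 to 1.16) for Dab2 and 1.03 (0.947 to 1.13) for Fcgrt. Amn gave 0.795 (0.702 to 0.901) there, a smaller decline than those of Lrp2 and Cubn. Clcn5 gave 1.01 (0.867 to 1.19), so the lack of a gradient was not particular to Dab2 and Fcgrt. The endothelial list, of whose 12 genes 4 were higher and 1 was lower, summed to 944 CPM in the SH045 section, against 632 CPM in the Vehicle-labelled section. Ranked by it Fcgrt gave 1.02 (0.929 to 1.12) in the SH045 section, and no gradient was detectable there at this depth. Podocyte markers, of which 2 of 9 measured were higher and 5 lower, summed to 245 CPM in the SH045 section, against 271 CPM in the Vehicle-labelled section.

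Dab2 was examined further because macrophages also make it. Spots of each section were parted at the median of the segment list and, within each part, at the median of the macrophage list, with 197 spots a set in the SH045 section. Among SH045 spots poor in segment markers, Dab2 stood at 159 CPM (148 to 170.0) where macrophage markers were high and 108 CPM (99.0 to 118) where they were low. Amn showed a like contrast, at 48.5 CPM (42.5 to 55.0) where macrophage markers were high and 32.6 CPM (27.6 to 38.4) where they were low, so it was not particular to Dab2. Cubn had 43.4 CPM where they were high and 34.6 CPM where they were low, and Lrp2 93.1 and 93.9 CPM in the same order. The segment list differed as well between these spots, at 802 CPM where macrophage markers were high and 663 CPM where they were low. Among SH045 spots rich in segment markers Dab2 stood at 226 CPM where macrophage markers were high and 227 CPM where they were low. Lrp2 stood there at 208 CPM where they were high and 473 CPM where they were low, with the segment list at 2288 and 4338 CPM. Among the spots of the Vehicle-labelled section poor in segment markers, Dab2 had 185 CPM where macrophage markers were high and 202 CPM where they were low. The part of macrophages in these values was not tested.

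The promoters of Lrp2, Cubn and Amn are shown because these 3 genes had the lowest ratios of the 6 and the steepest gradients. Each sequence is the 250 bases before the RefSeq start on GRCm38.p6, read 5′ to 3′ on the strand of the gene. Capitals mark matches, on either strand, to the GC box GGGCGG. They also mark matches to CACGTG, the E-box found in lysosomal genes, and no match overlapped another. The other motifs searched had no match in these 3 windows. The first was the HNF4 motif CAAAGTCCA. The nuclear receptor core AGGTCA was also searched. The last was the TATA box, TATAAA.
Lrp2 promoter, chr2:69586030-69586279, minus strand: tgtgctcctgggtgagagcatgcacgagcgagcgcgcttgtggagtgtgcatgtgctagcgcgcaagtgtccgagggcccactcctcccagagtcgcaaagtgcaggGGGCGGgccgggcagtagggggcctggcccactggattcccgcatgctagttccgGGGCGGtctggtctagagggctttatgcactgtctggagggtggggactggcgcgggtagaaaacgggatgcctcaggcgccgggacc
Cubn promoter, chr2:13491877-13492126, minus strand: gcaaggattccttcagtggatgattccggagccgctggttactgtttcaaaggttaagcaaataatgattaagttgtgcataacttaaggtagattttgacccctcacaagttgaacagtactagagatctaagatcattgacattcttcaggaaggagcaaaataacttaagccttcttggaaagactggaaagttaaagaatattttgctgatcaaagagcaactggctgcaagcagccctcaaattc
Amn promoter, chr12:111270846-111271095, plus strand: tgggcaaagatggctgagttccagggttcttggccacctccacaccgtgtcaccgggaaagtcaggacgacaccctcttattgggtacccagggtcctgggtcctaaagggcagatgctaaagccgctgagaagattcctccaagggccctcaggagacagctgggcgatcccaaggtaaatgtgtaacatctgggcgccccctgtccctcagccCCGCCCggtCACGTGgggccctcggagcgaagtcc
The 3 windows were not alike in composition. GC content was 66.4% for Lrp2, 39.6% for Cubn and 61.2% for Amn, with a median of 52.4% and lower and upper quartiles of 45.2% and 61.2% over all 32851 RefSeq promoter windows of that length. The Lrp2 window held GC boxes starting 143 and 88 bases before the start, and the Amn window held one on its minus strand 35 bases before the start and CACGTG 26 bases before it. The Cubn window held none of the 5 motifs. GGGCGG occurred in 32.7% of all promoter windows, CACGTG in 6.02%, CAAAGTCCA in 0.384%, AGGTCA in 14.0% and TATAAA in 12.4%. Of the other members, Dab2 and Clcn5 had 2 windows each, with GGGCGG and TATAAA in 1 Clcn5 window each, and Dab2 and Fcgrt had no match. These are letter matches in a short window and not measured binding.

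On the slide Lrp2 was high in patches in the SH045 section and over most of the Vehicle-labelled section. In spots with at least 1000 UMIs (788 SH045 and 659 Vehicle) Lrp2 had a lowest, median and highest level of 0, 137 and 1410 CPM in the SH045 section, against 0, 693 and 2751 CPM in the Vehicle-labelled section. Dab2 had 0, 156 and 786 CPM in the SH045 section, against 0, 182 and 1376 CPM in the Vehicle-labelled section, and Fcgrt had 0, 159 and 750.0 CPM in the SH045 section, against 0, 69.4 and 1502 CPM in the Vehicle-labelled section. The spots of both sections overlapped in all 3 genes, and the highest values of the shallower section come from few UMIs. Grid steps were counted from the edge of the spots in each matrix, gaps included, and not from a tissue outline. At 1 to 2, 3 to 4, 5 to 6 and 7 or more steps, Lrp2 ran 219.7, 204, 272 and 294 CPM in the SH045 section, against 758, 827, 930.5 and 853 CPM in the Vehicle-labelled section. Dab2 ran the other way in the SH045 section, at 207, 198, 189 and 143 CPM, and showed no steady order in the Vehicle-labelled section, at 234, 190.4, 241 and 199.8 CPM. Fcgrt stayed between 162 and 184 CPM in the SH045 section, against values between 113 and 143 CPM in the Vehicle-labelled section.

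**Figure D4:**
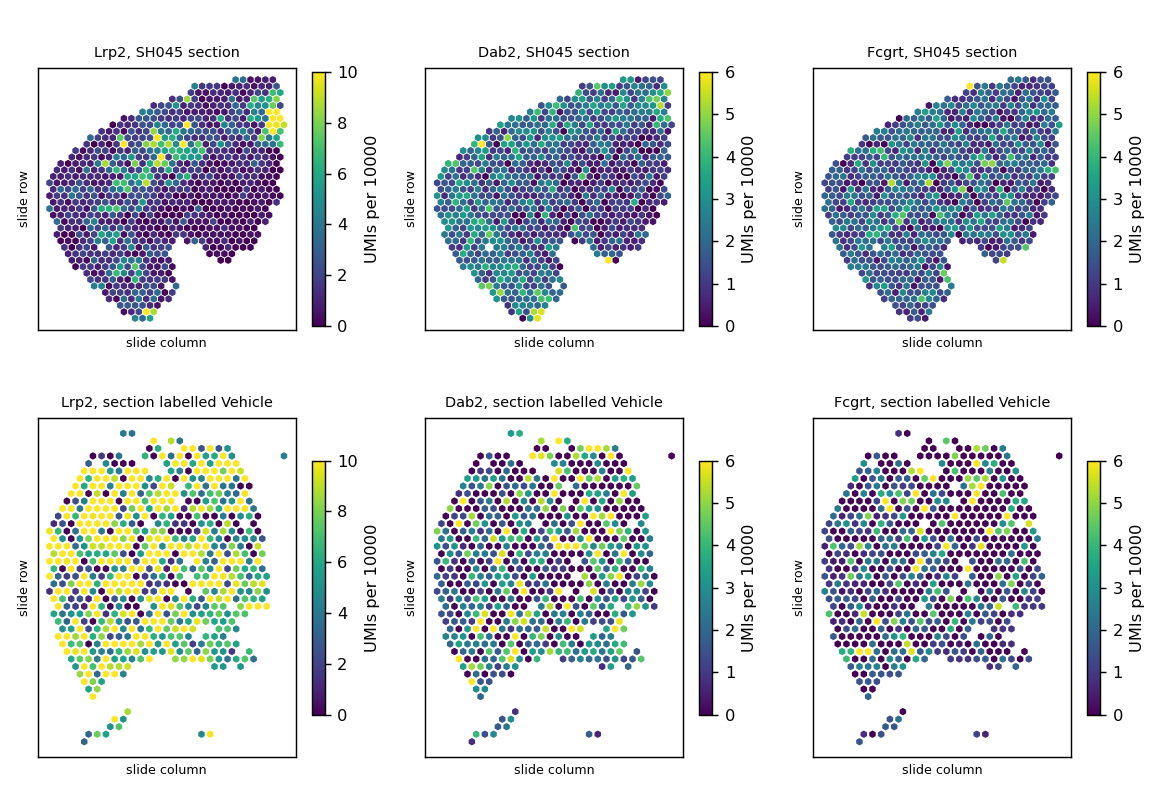
Lrp2, Dab2 and Fcgrt UMIs per 10000 UMIs in each spot, drawn at its slide row and column, with the SH045 section above and the Vehicle-labelled section below. Each gene has its own colour scale, capped at 10 for Lrp2 and 6 for Dab2 and Fcgrt. Lrp2 is high in patches of the SH045 section and over most of the Vehicle-labelled section.

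Regions were found by clustering the spots of each section on all genes, the 6 included, so their levels are a description and region numbers do not correspond between sections. Lrp2 was highest in SH045 region 7 (54 spots, led by Serpina1d, Slc22a7 and Slc22a19, genes of the straight segment) at 639 CPM (603 to 677), and next in region 5 (98 spots, led by the transporter and enzyme genes Slc22a8, Miox and Slc22a6) at 519 CPM (496 to 542). The lowest was region 1 (154 spots, with Dio2 and Cpxm2 among its 3 leading genes) at 45.1 CPM (38.0 to 53.0). Cubn kept that order with 244, 162 and 16.8 CPM in regions 7, 5 and 1, while Amn had 134, 157 and 18.0 CPM there. Dab2 was highest in region 5 at 299 CPM (282 to 317), followed by region 3 (129 spots, led by the chemokine genes Ccl5 and Cxcl10 and by Il1f6) at 245 CPM (231 to 260.4), and stood at 148 CPM (131 to 167) in region 7, where Lrp2 peaked. Region 3 also had the highest macrophage marker sum of the section, 3202 CPM, with the segment list at 1951 CPM. Region 5, where Dab2 was highest, had a macrophage sum of 1808 CPM and the segment list at 6248 CPM. Region 2 had a macrophage sum of 2894 CPM, with the segment list at 1373 CPM and Dab2 at 171 CPM. Outside regions 5 and 7, regions 3 and 2 had the highest Dab2, the highest macrophage sums and the highest segment list levels. The part of macrophages was not tested. Clcn5 lay between 35.0 and 68.3 CPM and Fcgrt between 108 and 199 CPM over the 8 SH045 regions.

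In the Vehicle-labelled section, Lrp2 was highest in region 2 (153 spots, led by Ggct, Pllp and AI314278) at 1255 CPM (1196 to 1317) and lowest in region 5 (43 spots, led by the kallikrein gene Klk1) at 177 CPM (132 to 232). Cubn was likewise highest in region 2, at 340.1 CPM, and lowest in region 5, at 37.4 CPM. Clcn5 was turned round, with 136 CPM in region 5 and 79.8 CPM in region 2. Regions 1 and 3 were led by mitochondrially encoded genes, which took 20.7% and 18.1% of their UMIs, and held Lrp2 at 678 and 728 CPM.

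**Figure D5:**
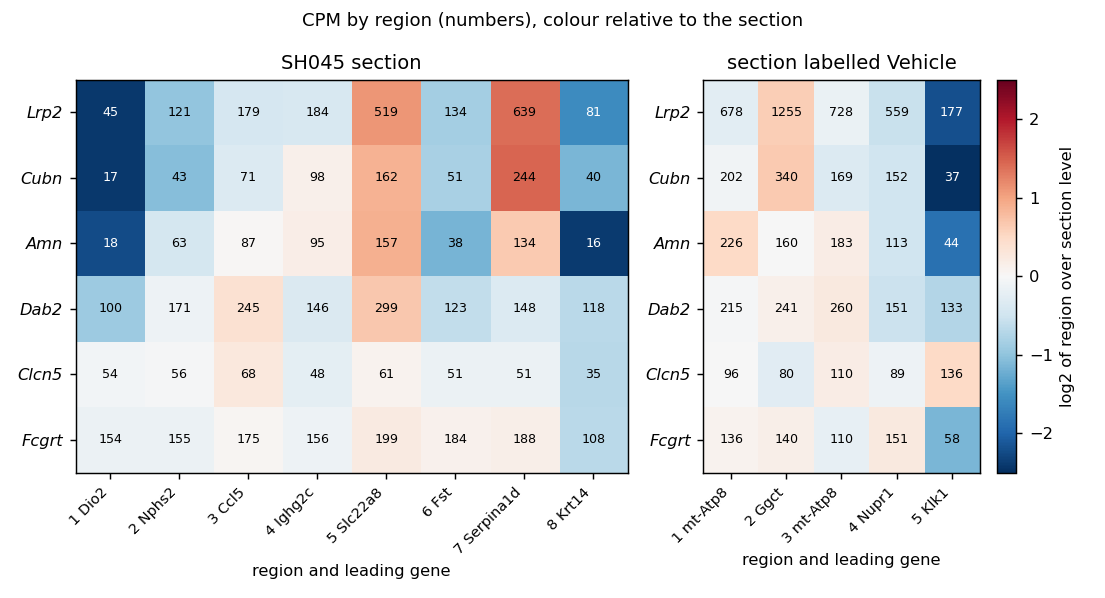
CPM of the 6 genes (numbers) in each region, named by its leading gene, of the SH045 section (left) and the Vehicle-labelled section (right), coloured by the log2 of the region over the section level. Lrp2 and Cubn share their highest and lowest regions in each section, while Fcgrt and Clcn5 vary little over the SH045 regions.

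Since depth differed, shares of spots with at least 1 UMI were taken after thinning each spot to 2500 UMIs, and shallower spots, 2 of SH045 and 115 of Vehicle, were dropped for this. Lrp2 was seen in 37.3% of 788 SH045 spots (exact binomial 95% interval 33.9 to 40.8%), against 79.9% of 561 Vehicle spots (76.3 to 83.1%). Without thinning the share was 87.3% of SH045 spots, against 88.3% of Vehicle spots. Cubn, Amn and Clcn5 were seen in 17.4%, 15.7% and 13.3% of thinned SH045 spots, against 40.8%, 34.6% and 21.9% of thinned Vehicle spots. The order was the other way for Fcgrt on this scale, with 34.8% (31.4 to 38.2%) of SH045 spots, against 26.7% (23.1 to 30.6%) of Vehicle spots. For Dab2 the intervals overlapped, at 35.3% (31.9 to 38.7%) of SH045 spots and 40.5% (36.4 to 44.7%) of Vehicle spots. Unthinned, Cubn, Amn, Dab2, Clcn5 and Fcgrt were seen in 69.5%, 69.4%, 92.8%, 72.3% and 96.1% of SH045 spots, against 58.9%, 55.5%, 63.8%, 40.1% and 50.9% of Vehicle spots. Unthinned shares follow depth, and for Cubn, Amn, Dab2 and Clcn5 their order opposes that of the CPM.

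Combinations of genes in the thinned spots differed too. Such shares also follow from the differing shares of the single genes. What those alone would give was not computed, so the values do not show genes lying apart or together. Spots with Dab2 but none of Lrp2, Cubn and Amn made up 16.0% of SH045 spots, against 3.92% of Vehicle spots, and Fcgrt without these 3 made up 16.9% of SH045 spots, against 3.39% of Vehicle spots. All 3 receptor complex genes were seen together in 2.03% of SH045 spots, against 13.5% of Vehicle spots. No endocytosis gene was seen in 20.3% of SH045 spots, against 4.28% of Vehicle spots.

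Across thinned spots Lrp2 and Cubn correlated weakly, with Pearson r of 0.21 over the 788 SH045 spots and 0.21 over the 561 Vehicle spots, the spots of each sharing a library and a section. With the segment list score Lrp2 gave 0.44 in the SH045 section, against 0.40 in the Vehicle-labelled section. The straight segment list gave like values for Lrp2, 0.44 in the SH045 section, against 0.46 in the Vehicle-labelled section. In the deeper SH045 section, thinned to 10000 UMIs (768 spots), Lrp2 gave 0.45 with Cubn, 0.33 with Amn, 0.22 with Dab2 and 0.64 with the segment list, while Clcn5 gave 0.01 with that list and Fcgrt 0.14. Patterns were also compared with all 1387 other genes of at least 0.2 thinned UMIs a spot, ranked by the lower r of the 2 sections. Among the 3 most like Lrp2 were Kap and Akr1c21, with r of 0.44 and 0.40 in the SH045 section, against 0.51 and 0.35 in the Vehicle-labelled section. Kap encodes the androgen-regulated protein of the mouse proximal tubule. For Cubn they included Kap and Guca2b, with r of 0.31 and 0.25 in the SH045 section, against 0.33 and 0.24 in the Vehicle-labelled section. For the sum of the 6 the first 5 included Spink1, Kap, Dbi and Cltrn, with r of 0.38, 0.35, 0.33 and 0.31 in the SH045 section, against 0.38, 0.57, 0.33 and 0.37 in the Vehicle-labelled section. For Amn, Dab2, Clcn5 and Fcgrt the best lower r did not pass 0.12 and no gene is named.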

How the data were processed

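Frozen kidney sections were profiled on Visium slides. The authors deposited raw UMI counts per gene and spot, made with Space Ranger 2.0.1 per the file headers, on mm10 per the submitters' processing notes; alignment settings and annotation are not given in any source used here. Every spot of each matrix was used. The position table of the Vehicle-labelled section flags 1210 tissue spots, and only 570 of the 676 matrix spots carry that flag, while for SH045 all 790 match. From the deposited counts, UMIs were summed per section and scaled to CPM over all genes (numpy 2.4.6, scipy 1.17.1), with ratios as log2(CPM + 1), which understates changes of low genes. Genes that reached 10 CPM in a section counted as measured, and higher or lower means 1.5-fold or more. Regions came from Leiden clustering (scanpy 1.11.5, leidenalg 0.10.2), TMM factors from edgeR 4.0.16. No doublet caller was run, since a spot is not a cell. Scripts were tested on simulated data. The 6 genes and the 27 lists were chosen with earlier results of these data known. Of the listed genes 3 were not matched in the files. Named by rule were the 6 genes, in each pathway or family list the 3 of highest mean CPM and those of highest and lowest ratio, in marker lists the 2 of highest level, the genes of most similar spot pattern (the 3 with the highest lower r for a member, 5 for the sum), and the 3 leading genes of each region. Havcr1 is named outside this rule, as a check of the label. Not all marker lists and regions are described. Some genes that the rule names are not reported here.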

Additional observations from a re-analysis of the deposited data

How the results depend on the processing

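Lrp2, Cubn, Amn, Dab2 and Clcn5 were lower in the SH045 section under each of 10 alternatives to the scaling, pseudocount, gene set or spots, with log2 ratios from -2.41 to -1.74, -1.91 to -1.22, -1.56 to -0.63, -0.87 to -0.09 and -1.40 to -0.66. Fcgrt, at 0.42, changed direction to -0.23 with median-of-ratios factors and to -0.16 with TMM factors, and the median of all measured genes, at 0.63, changed to -0.05 with median-of-ratios factors. The median of the 6 genes, at -0.84, became -1.48 with median-of-ratios factors, -1.41 with TMM factors, -1.05 without the 20 most abundant genes and -0.98 as a mean over spots. It was -0.65 in spots with under 10% mitochondrial UMIs, a filter chosen after seeing the data that kept 770 of 790 SH045 and 334 of 676 Vehicle spots. The number of lower genes was 2 at a fold of 2 and 4 or 5 under the other alternatives, and 0 were higher under all 12. The excess of the 6 genes over the segment list, at 1.45, became 1.64 in spots that the position tables mark as tissue, 1.75 as a mean over spots, 1.62 in spots with under 10% mitochondrial UMIs and -0.62 against the brush border list. Beyond the scaling factors themselves and the change of list, the cause was not tested. Depth limits the Vehicle-labelled section most, where Clcn5 rests on 418 UMIs and Fcgrt on 549. No paired analysis was possible because each group has 1 section.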

Other observations

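After the values were seen, the 197 SH045 spots of the top bin for first and second segment markers (4777 CPM) were set beside the 165 spots of the bottom bin of the Vehicle-labelled section (7051 CPM), the nearest in segment marker level. Lrp2 stood at 476 CPM in those SH045 spots and 434 CPM in those Vehicle spots, a fold of 1.10 whose counting interval includes equality (0.991 to 1.22). Cubn stood at 159 CPM in the SH045 spots and 124 CPM in the Vehicle spots, a fold of 1.28 (1.06 to 1.56), and Amn at 135 CPM in the SH045 spots and 93.1 CPM in the Vehicle spots, a fold of 1.45 (1.17 to 1.82). Dab2 and Fcgrt were higher in the SH045 spots by 1.70 (1.44 to 2.03) and 1.69 (1.39 to 2.07). Clcn5 was lower there, at 61.7 CPM against 124 CPM in the Vehicle spots, a fold of 0.497 (0.405 to 0.613). Under this choice of spots Lrp2, Cubn, Amn and Clcn5 no longer lay on the same side, although all 4 were lower in the whole SH045 section. The share of all measured genes that were higher in these SH045 spots was not computed. Over the whole sections that share was 53.2% at a fold of 1.5 or more, and the all-gene median log2 ratio was 0.63. These folds therefore do not place the genes against the typical gene. The bins come from opposite ends of each section's ranking, and other cell types in them were not matched.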
